A study of Drosophila melanogaster with 2 samples.

Results

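The Rab family GTPase genes of *Drosophila melanogaster* were examined for binding of CG12768, a protein with a MADF DNA-binding domain, at their promoters. Members were the protein-coding genes of the Ensembl BDGP6 annotation whose symbol is Rab followed by a number, or RabX followed by a number, with 1 family member and the genes named for a GAP or GEF activity left out. This gave 32 Rab genes among 13945 protein-coding genes on 6 chromosome arms. A gene counted as bound where the summit of a peak in the authors' thresholded list lay within 500 bp of one of its transcript starts. The rule used gene names, not measured values.

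The measurement was chromatin immunoprecipitation followed by sequencing from whole adult males of 1 transgenic line that carries CG12768 with GFP at its C terminus, recovered with an antibody against GFP. There were 2 biological replicates of this 1 group, the age of the flies is given as unknown, and there was no second genotype, treatment or tissue. The flies hold all adult tissues together, so a peak cannot be placed in a cell type, and the promoter that drives the transgene is not given in the sources used here. On the dm6 build the thresholded list, which draws on the pair of replicates, had 6066 peaks with signal values of 141 to 4110.4 and a median of 223. Signal is the authors' own peak value on a scale that the lists do not state, and it is used here only to rank and describe peaks within 1 list, with rank 1 the strongest. The pooled list and the list of each replicate held 30000 peaks each, background included, and the thresholded peaks were the 6066 strongest of the pooled list. For each replicate its own 6066 strongest peaks are called its leading peaks. The lists give no read counts, so depth is unknown. Peaks of a mock immunoprecipitation were not analysed here, and transcript levels were not measured.

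Rab proteins are small GTPases that mark the membranes of the secretory and endocytic routes. An exchange factor loads a Rab with GTP, the active form binds effectors such as tethers and motor adaptors, and a GTPase-activating protein returns it to the GDP form. A lipid anchor added by geranylgeranyl transferase, with the help of the Rab escort protein, holds the active Rab on its membrane. Some Rabs work in nearly every cell, such as Rab1, Rab5, Rab7 and Rab11, while others serve particular cells, such as Rab32 in the pigment granules of the eye.

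CG12768 had a thresholded summit at the promoters of 9 of 32 Rab genes (28.1%, 95% Wilson interval 15.6 to 45.4%), against 25.9% of all protein-coding genes. The share of bound Rab genes was thus close to that of genes as a whole. The 9 bound genes were *Rab5*, *Rab7*, *Rab26*, *Rab8*, *Rab32*, *Rab1*, *Rab39*, *Rab9* and *Rab18*, in order of the signal of their strongest promoter peak. These signals ran from 265 to 1052 with a median of 282, while the 3613 bound genes of the genome ran from 141 to 4033 with a median of 259. All 9 bound Rab genes were also bound when only the 3033 thresholded peaks of highest signal were kept, a list that bound 15.4% of all genes. The promoter peaks of the family numbered 11, since *Rab5* and *Rab7* had a pair each, and 10 of the 11 were at the ceiling of the deposited −log10 q-values. Of the 11 summits, 4 lay in introns and 5 in exons of any annotated gene. At a start other than the most upstream one of the gene were 4 of the peaks. The shares of all promoter peaks with these traits are not given here, so these counts describe the Rab peaks only.

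*Rab5*, whose product drives the fusion of early endosomes, held the strongest Rab peaks. The peak at chr2L:2363562-2363978 had a signal of 1052 and rank 128 of 6066, with its summit at −301 bp from the start of the transcript Rab5-RE. The other, at chr2L:2362942-2363318, had a signal of 868 and rank 201, with its summit at −317 bp from the start of Rab5-RA. These starts are the fourth and the fifth of 6 along the gene, and both summits lay in introns, 1468 and 2175 bp downstream of the most upstream start. No thresholded summit lay within 500 bp of that most upstream start, which faces the gene *Axud1* at a distance of 72 bp. The strongest promoter peak of *Rab5* in the list of replicate 1 had a signal of 605 and rank 90, and in that of replicate 2 a signal of 537 and rank 153, with summits at −327 and −283 bp. It was thus among the strongest peaks of either replicate.

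*Rab7*, which acts on late endosomes and lysosomes, also had its strongest peak at an internal start. That peak, at chr3R:23993470-23993748 with a signal of 729 and rank 319, had its summit in an intron at −129 bp from Rab7-RB, the last of 3 starts and 596 bp downstream of the most upstream one. A weaker peak at chr3R:23992799-23993242 had a signal of 148 and rank 5666, near the foot of the list, with its summit in the 5′ UTR at 13 bp from the start of Rab7-RA. That summit was also at −105 bp from the divergent gene *Epp*. The strongest peak had a signal of 468 and rank 171 in replicate 1, and a signal of 259 and rank 733 in replicate 2, with summits at −129 and −127 bp.

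The sequences at the internal summits of *Rab5*, *Rab7* and *Rab26*, the 3 genes with the strongest Rab peaks, are printed because the strongest family signals lie there and not at the most upstream start. Each is the 200 bp around the summit, read on the strand of the gene, 5′ to 3′, from the Release 6 genome, where dm6 coordinates apply. Capitals mark a match to 1 of 5 promoter motifs searched on both strands. These were the DNA replication-related element (DRE) TATCGATA, the core promoter Motif 1 GGTCACAC, the E-box CACGTG, the GAGA repeat GAGAGAG and the cyclic AMP response element TGACGTCA.
Rab5, chr2L:2363706-2363905, minus strand: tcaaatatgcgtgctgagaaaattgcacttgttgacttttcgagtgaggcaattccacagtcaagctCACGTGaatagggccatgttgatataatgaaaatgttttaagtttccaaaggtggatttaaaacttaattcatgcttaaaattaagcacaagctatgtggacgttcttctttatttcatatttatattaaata
Rab5, chr2L:2362999-2363198, minus strand: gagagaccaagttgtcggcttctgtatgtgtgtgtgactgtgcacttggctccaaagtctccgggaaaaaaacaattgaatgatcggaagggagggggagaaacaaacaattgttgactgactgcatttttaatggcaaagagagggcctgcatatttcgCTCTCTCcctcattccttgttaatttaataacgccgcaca
Rab7, chr3R:23993505-23993704, plus strand: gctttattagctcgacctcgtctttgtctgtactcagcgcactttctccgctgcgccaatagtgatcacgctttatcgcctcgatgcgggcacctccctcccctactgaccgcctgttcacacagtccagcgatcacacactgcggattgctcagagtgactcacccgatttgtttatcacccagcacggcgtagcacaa
Rab26, chr3L:21321856-21322055, plus strand: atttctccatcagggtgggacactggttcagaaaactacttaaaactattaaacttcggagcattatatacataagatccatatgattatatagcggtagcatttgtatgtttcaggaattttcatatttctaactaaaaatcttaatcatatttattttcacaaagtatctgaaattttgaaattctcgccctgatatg
The stronger *Rab5* summit held an E-box and the other *Rab5* summit a GAGA repeat on the opposite strand, while none of the 5 motifs was in the *Rab7* and *Rab26* windows. The GC content was 32.5% and 45% in the *Rab5* windows, 55% in the *Rab7* window and 30% in the *Rab26* window. Over all 3362 thresholded promoter peaks, an E-box was within the 200 bp at the summit in 3% and a GAGA repeat in 8.48%. The 4 windows thus share neither a motif of this set nor a base composition.

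*Rab8*, which directs vesicles to the plasma membrane, was bound at its most upstream start. Its peak at chr3L:19870975-19871196 had a signal of 377 and rank 1210, with its summit at −8 bp. The summit lay in the 61 bp between the divergent starts of *Rab8* and *Usp32*, a deubiquitinase gene, and at −53 bp from the *Usp32* start. In replicate 1 the strongest peak had a signal of 171 and rank 1700, and in replicate 2 a signal of 202 and rank 1174.

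*Rab1*, which acts in transport from the endoplasmic reticulum to the Golgi, had a peak at chr3R:21268979-21269178 with a signal of 281 and rank 2086. Its summit was at −35 bp from the only start of the gene. Replicate 1 gave a signal of 87.8 at rank 5389 and replicate 2 a signal of 194 at rank 1251, so this peak was only just among the leading peaks of replicate 1. A further summit with a signal of 163 lay in an intron at 673 bp. *Rab18*, known in mammals for lipid droplets and the endoplasmic reticulum, had a peak at chrX:5671383-5671826 with a signal of 265 and rank 2299. Its summit lay inside a coding exon at 207 bp. Replicate 1 gave a signal of 177 at rank 1571 and replicate 2 a signal of 82.4 at rank 4544.

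The 60 bp at the summits of *Rab1* and *Rab18* show the pair of summit positions among the bound widely used Rabs with a single start, just upstream of it and inside the gene. They are read on the strand of the gene, and neither holds a match to the 5 motifs.
Rab1, chr3R:21269066-21269125, minus strand, summit at −35 bp: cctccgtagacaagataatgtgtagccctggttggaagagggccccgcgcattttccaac
Rab18, chrX:5671576-5671635, minus strand, summit at 207 bp: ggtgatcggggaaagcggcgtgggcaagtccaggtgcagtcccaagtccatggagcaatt

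*Rab26* and *Rab32* were the bound genes among the Rabs placed as tissue-restricted. *Rab26*, whose mammalian counterpart is found on secretory granules and synaptic vesicles, had a peak at chr3L:21321948-21322060 with a signal of 409 and rank 1032. Its summit lay in an intron at −426 bp from the start shared by Rab26-RD and Rab26-RF, the last of 3 starts and 3181 bp downstream of the most upstream one. The gene had a signal of 179 at rank 1534 in replicate 1 and of 231 at rank 918 in replicate 2, so both replicates placed it high.

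*Rab32*, also called *lightoid*, is needed for the pigment granules of the eye. Its promoter peak at chr2R:9185899-9186342 had a signal of 282 and rank 2055, with the summit in a coding exon at 221 bp from the most upstream of 5 starts. Elsewhere in the gene lay a summit with a signal of 287, in an intron at 1680 bp, and 1 with a signal of 171 at −2194 bp from the next start. The replicates differed at this promoter, with a signal of 246 at rank 791 in replicate 1 and of 45.2 at rank 10668 in replicate 2, outside the leading peaks of the second.

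*Rab39* and *Rab9* were the bound genes among those not placed in a class of use. *Rab39*, which in mammals acts in endosomal and lysosomal traffic, had a peak at chrX:7734301-7734744 with a signal of 280.4 and rank 2091. Its summit was at −400 bp from the *Rab39* start but at −85 bp from the nearest start of the divergent gene *Pdp*. Another *Pdp* start lay only 272 bp from that of *Rab39*. The summit was thus beyond the divergent pair of starts, in an annotated 5′ UTR outside *Rab39*. *Rab39* was not bound where each summit was given only to its nearest start. Replicate 1 gave a signal of 119 at rank 3303 and replicate 2 a signal of 167 at rank 1607. *Rab9*, which in mammals returns cargo from late endosomes to the Golgi, had a peak at chr2L:19432436-19432879 with a signal of 276 and rank 2151, its summit in the 5′ UTR at 84 bp. Introns of *Rab9* held further summits at 918 bp, with a signal of 339, and at 1901 bp, with a signal of 152. Replicate 1 gave *Rab9* a signal of 219.5 at rank 993 and replicate 2 a signal of 64.7 at rank 6467, just outside its leading peaks.

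**Figure D1:**
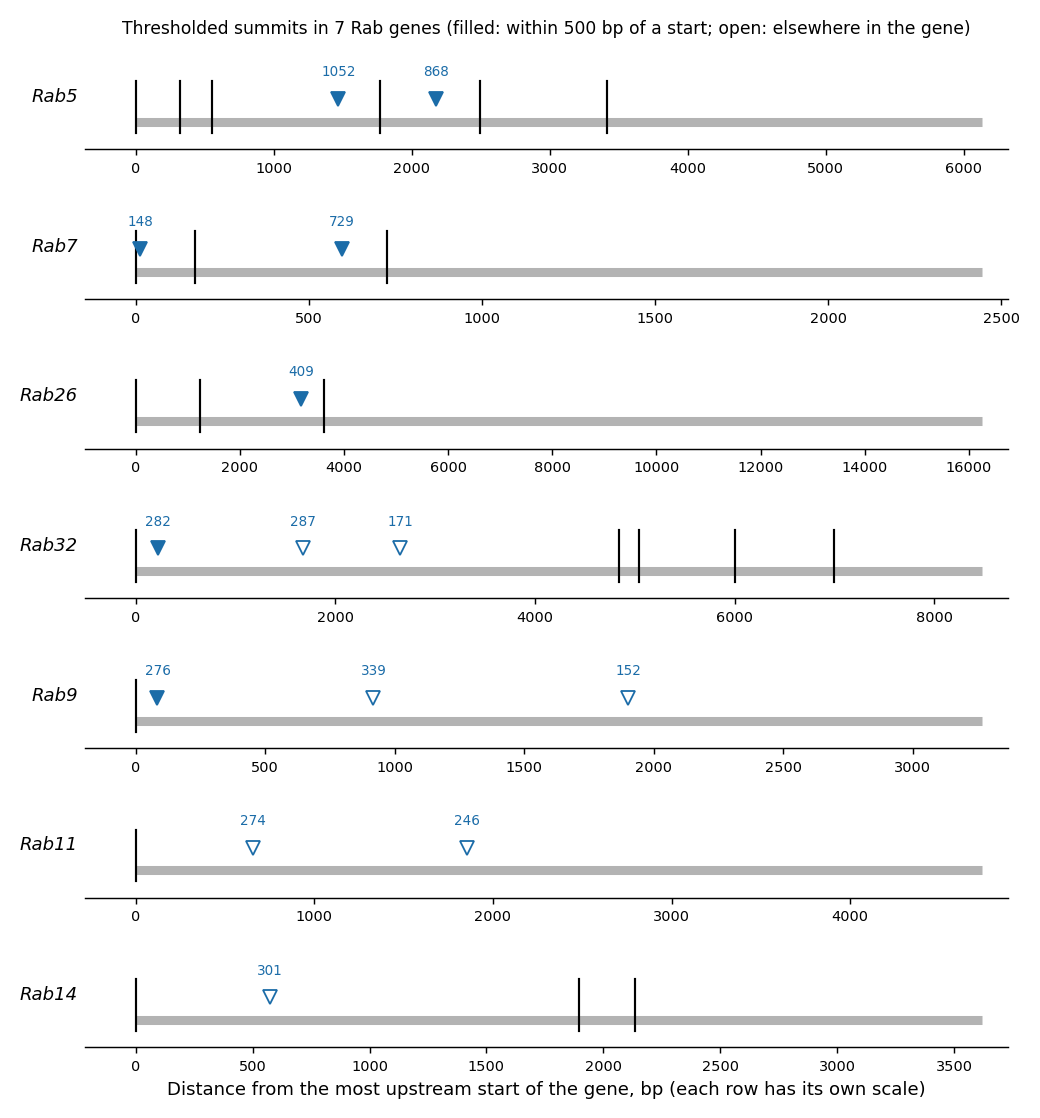
Thresholded summits along 7 Rab genes. The horizontal axis is the distance in bp from the most upstream start of each gene, on a scale of its own in each row, grey bars are the genes, black lines their transcript starts, filled triangles summits within 500 bp of a start, open triangles other summits in the gene, and the printed values the signals. The strongest summits of *Rab5* (1052), *Rab7* (729) and *Rab26* (409) sit well inside the gene, upstream of an internal start, while *Rab11* and *Rab14* hold summits in introns only.

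The distances of summits from transcript starts show how the 500 bp limit divides the family. The bound genes nearest to the limit were *Rab26* at −426 bp and *Rab39* at −400 bp. Just beyond it lay *Rab14*, with an intron summit at 574 bp and a signal of 301, and *Rab11*, with an intron summit at 658 bp and a signal of 274 and another at 1856 bp with a signal of 246. The next nearest summits lay outside the Rab gene itself. That of *Rab30* was at −893 bp with a signal of 201, in an intron of another gene. That of *Rab23* was at −1071 bp with a signal of 191, also in an intron of another gene. That of *RabX5* was at 1401 bp with a signal of 526, in intergenic sequence. With summits anywhere in the gene counted as well, 11 of 32 Rab genes had one, the additions being *Rab11* and *Rab14*, against 29.8% of all genes. With only the most upstream start of each gene, 7 of 32 were bound, against 23.1% of all genes, and the genes lost were *Rab5* and *Rab26*.

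The number of annotated starts differed between members. Of the 6 Rab genes with at least 3 starts, 4 were bound (*Rab5*, *Rab7*, *Rab26* and *Rab32*, but not *Rab14* or *Rab21*), against 57.6% of all genes with as many starts. Of the 23 with a single start, 4 were bound (*Rab1*, *Rab9*, *Rab18* and *Rab39*), against 19.6% of all such genes. Both Rab counts lay near the share of other genes with the same number of starts.

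Rab genes on X were bound in 2 of 13 cases (*Rab18* and *Rab39*), against 17.8% of all genes on X. Those on the large autosome arms were bound in 7 of 19 cases, against 27.5% of all genes there. Adult males carry a single X, and the Rab genes on X include the *Rab9*-like genes *Rab9D*, *Rab9Db*, *Rab9E*, *Rab9Fa* and *Rab9Fb*. The part of either in these counts was not tested. A divergent partner, meaning a start on the opposite strand within 1000 bp upstream, was present at 18 Rab genes, of which 6 were bound (*Rab5*, *Rab7*, *Rab8*, *Rab18*, *Rab26* and *Rab39*), against 42.4% of all genes with such a partner. Of the 14 Rab genes without one, 3 were bound (*Rab1*, *Rab9* and *Rab32*), against 16.5% of all genes without one. At *Rab5* and *Rab26* the summits lay in introns, within 500 bp of an internal start and away from the divergent pair.

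Among widely used Rabs, 5 of 13 were bound (*Rab1*, *Rab5*, *Rab7*, *Rab8* and *Rab18*, 38.5%, Wilson interval 17.7 to 64.5%), against 25.9% of all protein-coding genes. Among tissue-restricted Rabs 2 of 8 were bound (25%, interval 7.15 to 59.1%), close to the share of all genes. The intervals overlap over most of their length, and the difference between the classes was not tested. These intervals treat each gene as a separate draw and cover counting error only. The classes came from general knowledge of where each Rab is used, and no expression was measured here. Among Rabs with a divergent partner, 4 of 10 widely used and 1 of 5 tissue-restricted ones were bound, against 42.4% of all such genes. Without a partner, 1 of 3 was bound in either class, against 16.5% of all such genes. The widely used Rabs without a thresholded promoter summit were *Rab2*, *Rab4*, *Rab6*, *Rab10*, *Rab11*, *Rab14*, *Rab21* and *Rab35*, and the tissue-restricted ones *Rab19*, *Rab23*, *Rab27*, *Rab30*, *RabX4* and *RabX6*. Of the 11 Rabs placed in neither class, 2 were bound (18.2%, interval 5.14 to 47.7%), against the same 25.9% of all genes. The widely used and bound genes had a median signal of 377, and the tissue-restricted ones the 409 of *Rab26* and the 282 of *Rab32*.

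The leading peaks of each replicate also gave widely used Rabs a greater share than tissue-restricted ones. In replicate 1, 5 of 13 widely used and 2 of 8 tissue-restricted Rabs were bound, and in replicate 2, 6 of 13 and 1 of 8. The whole family had 9 of 32 genes bound by the leading peaks of either replicate, against 22.9% of all genes in replicate 1 and 27.9% in replicate 2. The 9 genes of replicate 1 were those of the thresholded list, while replicate 2 held *Rab11* and *RabX1* in place of *Rab9* and *Rab32*. Leading peaks of both replicates bound *Rab1*, *Rab5*, *Rab7*, *Rab8*, *Rab18*, *Rab26* and *Rab39*, which are 7 of 32, against 18.4% of all genes. These 7 include 5 of the 13 widely used Rabs and 1 of the 8 tissue-restricted ones.

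**Figure D2:**
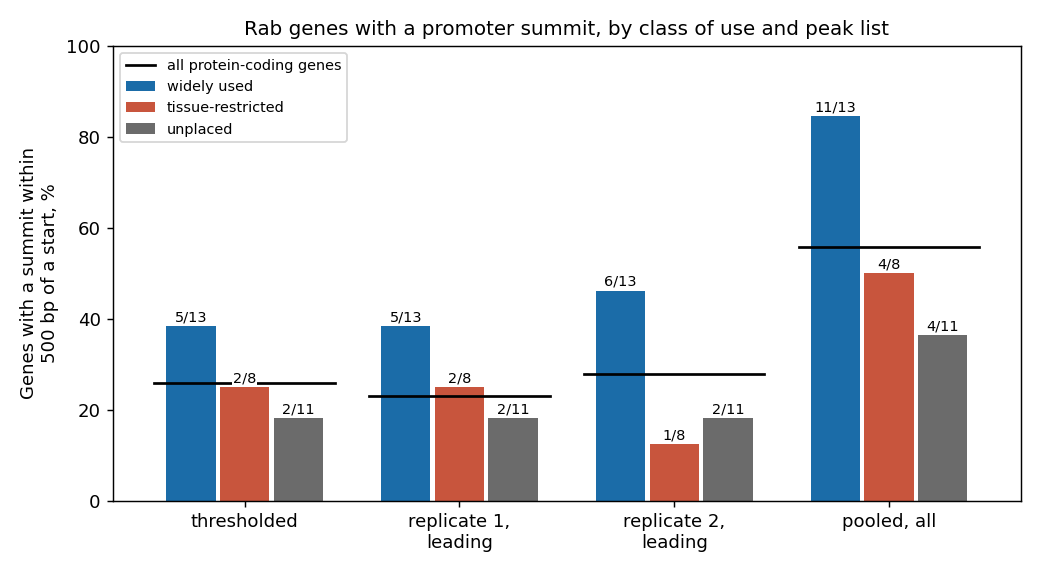
Share of Rab genes with a promoter summit, by class of use. The vertical axis is the percentage of genes with a summit within 500 bp of a start, bars are the widely used, tissue-restricted and unplaced Rabs in 4 lists, labels give bound over all members, and black lines give the share of all protein-coding genes. Widely used Rabs have the highest bar in each of these lists, with 5 of 13, 5 of 13, 6 of 13 and 11 of 13.

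The lists that include background were more lenient. In the pooled list 19 of 32 Rab genes had a promoter summit, against 55.8% of all genes, with 11 of 13 widely used and 4 of 8 tissue-restricted Rabs. The full list of replicate 1 gave 19 of 32, against 52.7% of all genes, with 10 of 13 widely used and 5 of 8 tissue-restricted Rabs. The full list of replicate 2 gave 22 of 32, against 55.1%, with 11 of 13 and 7 of 8, so there the tissue-restricted Rabs had the greater share. Widely used Rabs thus had a greater share than tissue-restricted ones in the other lists but not in that one.

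*Rab11*, which acts on recycling endosomes, came closest to the threshold. Its promoter peak had a signal of 140.0 at rank 6147 in the pooled list, just below the last thresholded rank of 6066. Its ranks were 13288 in replicate 1, with the summit at −7 bp, and 2589 in replicate 2, with the summit at −206 bp. *RabX1* had rank 6402 in replicate 1 and 4448 in replicate 2, but only 15518 in the pooled list, and its replicate summits lay apart, at 262 and −153 bp. *Rab2*, a Golgi and lysosomal Rab, had rank 7076 in replicate 1 and 11872 in replicate 2, and *Rab30* 9437 and 8520. *Rab10*, which in flies guides the secretion of basement membrane, had ranks of 12429 and 10980, and *Rab6*, a Golgi Rab, of 11254 and 13789. *Rab19* had ranks of 14927 and 12568, *Rab14* of 18703 and 18431 and *Rab40*, which carries a SOCS box, of 21236 and 10326. These peaks fell outside the leading peaks of each replicate, apart from those of *Rab11* and *RabX1* in replicate 2.

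The remaining unbound members lacked a promoter summit in at least 1 of the pooled and replicate lists. *Rab27*, a Rab of regulated secretion in mammals, had a summit in both replicate lists, at ranks 17677 and 14158, and none in the pooled list. *Rab21* had a summit at rank 12984 of replicate 2 and rank 21612 of the pooled list, and none in replicate 1. *RabX6*, at rank 18815, and *Rab23*, a planar polarity gene of the wing, at rank 26989, had one in replicate 2 alone. No promoter summit was in any of these lists for 10 of 32 Rab genes, against 36.2% of all genes. They were *Rab4* and *Rab35*, which act in recycling from endosomes to the plasma membrane, with *RabX2*, *RabX4*, *RabX5*, *Rab9D*, *Rab9Db*, *Rab9E*, *Rab9Fa* and *Rab9Fb*.

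**Figure D3:**
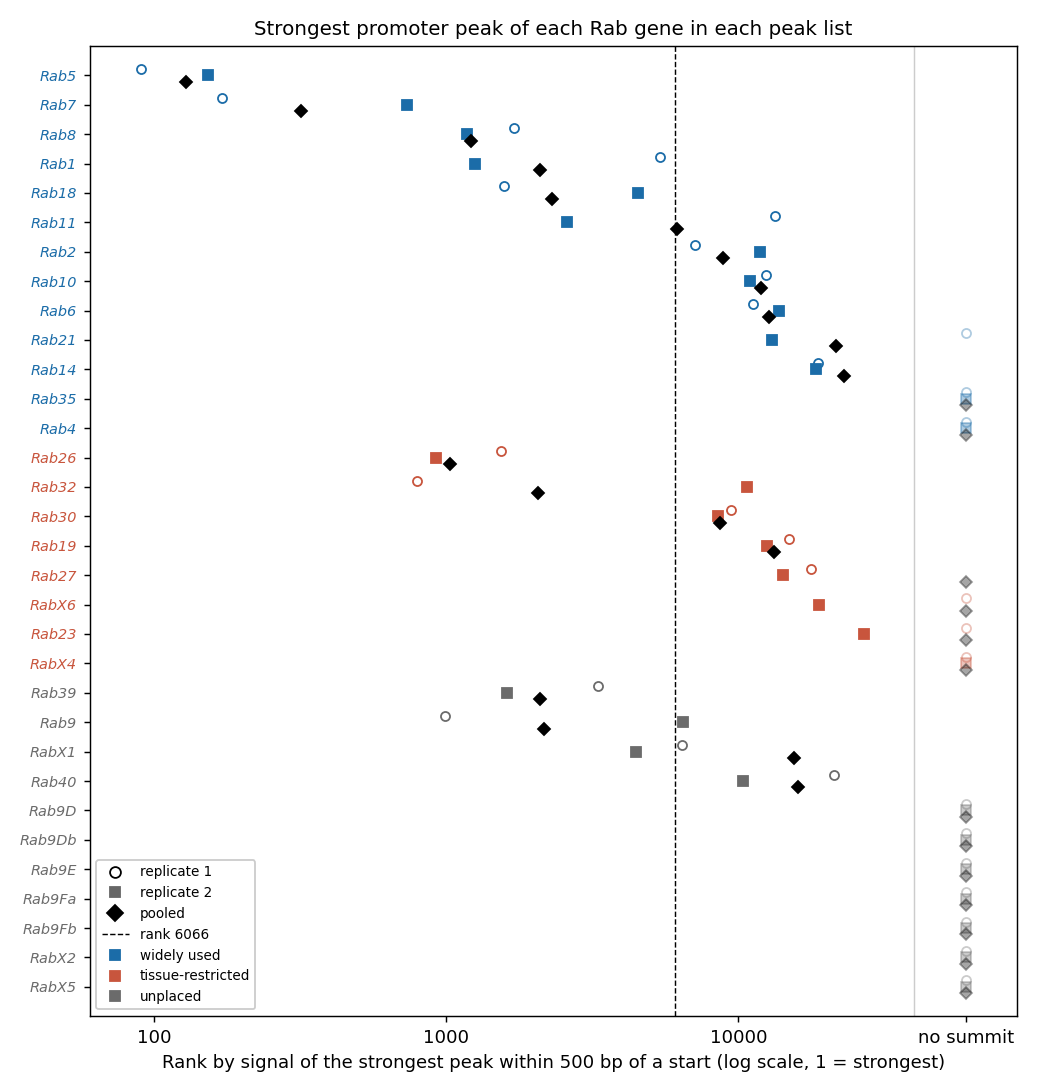
Rank of the strongest promoter peak of each of the 32 Rab genes. The horizontal axis is the rank by signal on a log scale, 1 being the strongest, with genes that have no summit at the right, symbols mark replicate 1 (open circles), replicate 2 (filled squares) and the pooled list (black diamonds), colours give the class of use, and the dashed line is rank 6066. *Rab5*, *Rab7*, *Rab8*, *Rab1*, *Rab18*, *Rab26* and *Rab39* have all 3 symbols left of the line, and 10 genes have all 3 at the right edge.

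Several of the members without any summit are near copies of one another. The 500 bp to either side of the start aligned elsewhere in the genome over at least 300 bases at 95% identity or more for 5 Rab genes. The longest such alignment was 509 bases at 98.6% for *Rab9D*, 538 at 97.4% for *Rab9Db*, 520 at 98.3% for *Rab9E*, 538 at 98.5% for *Rab9Fa* and 326 at 95.7% for *RabX2*. The sources used here do not give how the authors treated reads that fit several places. The part of this likeness in the absence of peaks was not tested. Without these 5 genes, 9 of 27 Rab genes were bound, against 25.9% of all genes, from which genes with copied promoters were not removed. The 60 bp just upstream of *Rab9Db* and of *Rab9Fa*, on the strand of each gene, are printed to show the extent of the likeness, since all 60 of 60 positions were identical.
Rab9Db, chrX:10623226-10623285, minus strand: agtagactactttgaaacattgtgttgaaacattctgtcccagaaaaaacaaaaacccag
Rab9Fa, chrX:10951031-10951090, minus strand: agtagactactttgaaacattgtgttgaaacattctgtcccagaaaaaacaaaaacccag

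Of the 5 motifs, the DRE was present at the most Rab promoters. It was within 100 bp of the most upstream start in 11 of 32 Rab genes (34.4%), against 7.84% of all protein-coding genes. The genes were *Rab2*, *Rab6*, *Rab7*, *Rab8*, *Rab14*, *Rab19*, *Rab27*, *Rab30*, *Rab35*, *Rab40* and *RabX6*, of which 6 are widely used and 4 tissue-restricted. CG12768 was bound at 2 of these 11 Rab genes, *Rab7* and *Rab8* (18.2%), against 34.4% of all 1093 genes with a DRE there. Among Rab genes without one, 7 of 21 were bound, against 3237 of 12852 of all genes without one. Most DRE-bearing Rab promoters thus had no thresholded summit, and most bound Rab promoters had no DRE.

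The sites below, each 30 bases on the strand of the gene with the DRE in capitals, set the bound genes *Rab7* and *Rab8* beside unbound ones with the same element. The DRE reads the same on both strands. The *Rab7* peak at this element was the weaker one of the gene, with a signal of 148 at rank 5666.
Rab7, chr3R:23992980-23993009, bound, element at −17 bp: cacgactgcacTATCGATAaccagtactga
Rab8, chr3L:19871078-19871107, bound, element at −18 bp: gtacgataagcTATCGATAgacgacggcgc
Rab35, chrX:20159866-20159895, not bound, element at −12 bp: ctatcctaaacTATCGATAgcataaacatc
Rab19, chr3L:8296987-8297016, not bound, element at −20 bp: gtaaaatggaaTATCGATAtatgagcttcg
Rab6, chr2L:12109150-12109179, not bound, element at −52 bp: aaatatgcgttTATCGATAgcgtggcagag
Rab30, chr2L:7032635-7032664, not bound, element at −47 bp: aaacgtcgatcTATCGATAccgagaaaaac
The bound *Rab7* and *Rab8* had the element within 20 bp of the start, as did the unbound *Rab35*, *Rab19* and *Rab40* (−17 bp). In the other unbound genes with a DRE the element lay further upstream, from −47 bp at *Rab30* to −81 bp at *Rab14*. Whether its position bears on binding was not tested. *Rab35*, with the element at −12 bp, had no summit in any list.

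The other motifs were rarer at Rab genes. Around the most upstream start, Motif 1 was present at *Rab4*, *Rab6*, *Rab14* and *Rab23*, against 6.75% of all genes, the E-box at *Rab14*, against 2.88%, and the GAGA repeat at *Rab26*, against 3.67%. The cyclic AMP response element was at none of the 32, against 0.222% of all genes. In the 200 bp at the 11 Rab summits, a DRE lay at 2 (the weaker *Rab7* peak and the *Rab8* peak), against 4.52% of all promoter peaks, and Motif 1 at none, against 2.83%. These matches are a description of letters, and binding of any other factor was not measured.

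Genes that serve the Rab cycle were bound in 31 of 66 cases (47.0%, Wilson interval 35.4 to 58.8%), against the 9 of 32 of the Rab genes themselves and 25.9% of all genes. The leading peaks of replicate 1 bound 21 of the 66, against 9 of 32 Rab genes and 22.9% of all genes. Those of replicate 2 bound 39 of the 66, against 9 of 32 Rab genes and 27.9% of all genes. With only the 3033 strongest thresholded peaks the contrast was gone, since 18 of 66 machinery genes (27.3%) were bound, against 9 of 32 Rab genes (28.1%) and 15.4% of all genes. With each summit given only to its nearest start, 22 of 66 machinery genes (33.3%) were bound. This stands against 8 of 32 Rab genes (25%) and 20.5% of all genes. No test of the difference was made, since the lists were drawn with earlier results known.

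For anchoring on membranes, 2 of 4 genes of prenylation and recycling were bound, against 25.9% of all genes. The bound ones were *Rep*, the Rab escort protein gene, with a signal of 627, and *RabGGTb*, a subunit gene of the geranylgeranyl transferase, with a signal of 257. Among exchange factors 5 of 9 were bound, against the same 25.9%, led by *Mon1* with a signal of 795, *Ccz1* with 207 and *Rich* with 189. Leading peaks of replicate 1 bound 2 genes of prenylation and recycling and 2 exchange factors, against 22.9% of all genes. In replicate 2 these counts were 4 and 5, against 27.9% of all genes. Mon1 and Ccz1 are parts of the exchange factor that activates Rab7, and the promoters of *Rab7*, *Mon1* and *Ccz1* each held a thresholded peak. Of these, *Mon1* had ranks of 594 and 187 in replicates 1 and 2, while *Ccz1* had 11591 and 1844. The ranks of *Rich* were 11325 and 2124. Other Rabs were not matched with their exchange factors, so the peaks at *Rab7*, *Mon1* and *Ccz1* describe that set only.

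Among GTPase-activating proteins 2 of 9 were bound, *GAPcenA* with a signal of 342 and *sky*, which acts at the synapse, with 302. Effectors and tethers were bound in 16 of 34 cases. Both counts stand against 25.9% of all genes. The strongest were *Vps33B*, a gene of vesicle fusion, with a signal of 1024, *Rbsn-5*, an effector of Rab5, with 513, and *Sec6*, an exocyst subunit gene, with 422. Subunits of TRAPP, the complex that activates Rab1 and tethers vesicles, were bound in 6 of 10 cases, against the same 25.9%. They were led by *SIDL* with 819, *Trs20* with 385 and *gry* with 360.3. Leading peaks of replicate 1 bound 3 GTPase-activating protein genes, 11 effectors and tethers and 3 TRAPP subunits, against 22.9% of all genes. In replicate 2 these counts were 4, 19 and 7, against 27.9% of all genes.

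Other small GTPases, of the Arf, Sar and Ras families, were bound in 11 of 23 cases (47.8%, interval 29.2 to 67.0%), against 9 of 32 Rab genes and 25.9% of all genes. With only the 3033 strongest thresholded peaks the order was the opposite, with 5 of 23 bound (21.7%), against 9 of 32 Rab genes (28.1%) and 15.4% of all genes. Within 250 bp 7 of 23 were bound (30.4%), against 6 of 32 Rab genes (18.8%) and 21.6% of all genes. In the Arf and Sar family 6 of 12 were bound, led by *Arl1*, a Golgi GTPase gene, with a signal of 1464, *Arf1* with 263 and *Arl5* with 245. In the Ras family 5 of 11 were bound, led by *Ras85D* with 322, *Ric* with 289.8 and *Rheb*, an activator of TOR signalling, with 208. Their ranks in replicates 1 and 2 were 4104 and 1031 for *Ras85D*, 13879 and 849 for *Ric*, and 22071 and 1424 for *Rheb*. The leading peaks of replicate 1 bound 8 of the 23, against 22.9% of all genes, and those of replicate 2 bound 12, against 27.9% of all genes. The Wilson intervals of the Rab genes and of the other small GTPases overlap, and the difference was not tested.

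**Figure D4:**
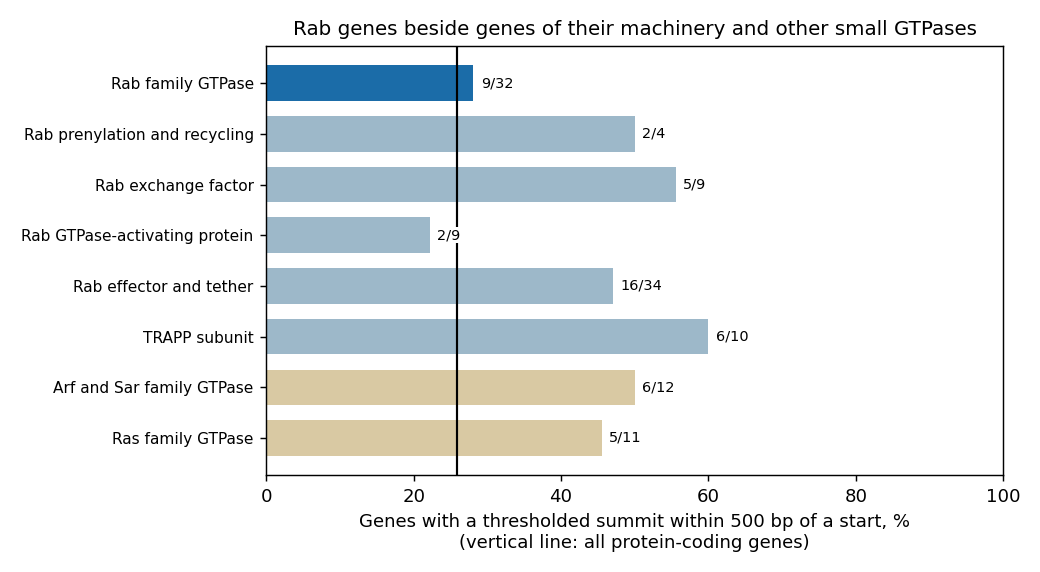
Share of Rab genes, genes of the Rab machinery and other small GTPase genes with a thresholded summit within 500 bp of a start. The horizontal axis is the percentage of genes bound, labels give bound over all members, and the vertical line is the share of all protein-coding genes, 25.9%. The Rab genes (9 of 32) lie near the line, the GTPase-activating proteins (2 of 9) below it, and the other 6 lists above it.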

How the data were processed

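Chromatin immunoprecipitation of CG12768-GFP was analysed in 2 biological replicates of 1 group, from the dm6 peak lists. The authors deposited a signal value and the −log10 of a q-value for each peak, and the thresholded, pooled and replicate lists were the authors' own. Per the accompanying notes of the authors, a control alignment entered the peak lists. Neither the software for alignment and peak calling nor the reproducibility threshold is given in the sources used here. The dm3 lists were not used here. Depth is unknown, so intervals cover counting error only.

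Summits were compared with transcript starts of protein-coding genes in Ensembl release 115 on 6 arms. Sequences came from the RefSeq Release 6 genome. Copies of promoters were found with BLAST+ 2.17.0 at an E-value of 1e-10. Calculations used Python 3.11.15, pysam 0.24.0 and matplotlib 3.10.9, and the assignment of summits to starts was tested on simulated peaks. No test was made over members.

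Members, classes of use, lists and motifs were chosen with earlier results of these data known, and some genes that the lists first held, including 1 Rab family member, are not reported here. After values were seen, 3 genes that are not established Rab regulators were dropped from the lists, sequence windows were widened from 60 to 200 bp where no UTR was met, and sites of 30 bases were added. Every Rab gene is named, with up to 3 genes of strongest signal per other list and the genes that share a promoter with a Rab. Alternatives were distances of 250 and 1000 bp, the 3033 strongest peaks, each replicate alone, 3000 leading peaks, the nearest or most upstream start, and the peak interval.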

Additional observations from a re-analysis of the deposited data

How the results depend on the processing

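The count of bound Rab genes was 9 of 32 and ran from 6 to 12 over the alternatives tried. It was 6 within 250 bp, where *Rab5*, *Rab26* and *Rab39* were lost, and 12 within 1000 bp, where *Rab11*, *Rab14* and *Rab30* were gained, against 21.6% and 29.7% of all genes. It was 8 with the nearest start alone and 11 with the peak interval, against 20.5% and 27.8% of all genes. With 1 replicate left out it was 9 either way, and that of widely used Rabs was 5 to 6. The tissue-restricted count of 2 was 1 within 250 bp, 1 with the most upstream start, and 1 to 2 with 1 replicate left out, being 1 without replicate 1. The machinery count of 31 of 66 (47.0%) was 18 (27.3%) with the 3033 strongest peaks, where 15.4% of all genes were bound, 21 to 39 with 1 replicate left out (31.8% and 59.1%, against 22.9% and 27.9% of all genes), and 33 of 69 with the 3 dropped genes. The other small GTPase count of 11 of 23 (47.8%) was 7 (30.4%) within 250 bp, 5 (21.7%) with the 3033 strongest peaks, and 8 to 12 with 1 replicate left out. With the nearest start alone the machinery count was 22 (33.3%) and that of the other small GTPases 9 (39.1%), against 20.5% of all genes. With all peaks of a replicate's list, in place of its leading peaks, the Rab count was 19 in replicate 1 and 22 in replicate 2. The median signal of bound Rab genes, 282, was 179 to 194 with 1 replicate left out, where each list has a scale of its own. Both lists were thus above the Rab share of 28.1% in the thresholded list and below it with the 3033 strongest peaks, and with all peaks of replicate 2 the tissue-restricted Rabs (7 of 8) were above the widely used ones (11 of 13). The cause was not tested. No paired analysis was possible because there was only 1 group. With 9 bound members and no read counts, neither the spread between flies nor small differences between classes could be measured.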
